A study of Mus musculus with 8 samples.

Results

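The genes described here are 40 mouse genes of the tricarboxylic acid (TCA) cycle and fatty acid oxidation, examined for chromatin accessibility at their ends and inside their gene spans. They were taken from a list of symbols that was drawn up with earlier results of these data known. Every region of the ATAC-seq count table that lay inside a member's RefSeq gene span on GRCm38, or within 1 kb of either end of it, was kept, and a region shared by members was counted once. This gave 77 of the 59906 regions of the table. A region within 1 kb of a gene end is called promoter-like, although one of the ends is the 3′ end, and any other is called internal. Members were classed by their own ends, and the class shares given beside them use the ends of any protein-coding gene, so that an internal Pcx region at an end of Lrfn4 counts as promoter-like in those shares. Of the 77 regions, 44 were promoter-like and 33 internal. All 40 genes had a region, 38 of them a promoter-like one, and 21 had no internal region.

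The samples were 8 ATAC-seq libraries of type 1 conventional dendritic cells (cDC1) sorted from mouse spleen. ATAC-seq uses a transposase that cuts accessible DNA, so that counts over a region measure how open its chromatin is, and not how much RNA the gene makes. Of the libraries, 4 came from OPA1-deficient mice, in which Cre driven by CD11c, a marker of dendritic cells that some macrophages also carry, acted on a floxed Opa1 gene. The other 4 came from WT mice. The groups are called OPA1KO and WT. The labels do not say whether WT mice carried Cre or floxed alleles, do not give age or sex, and do not tie libraries to animals, so a p-value here reflects only how far these 8 libraries spread, and part of that spread may be technical. OPA1, a mitochondrial GTPase, joins inner membranes during fusion and keeps cristae narrow. The comparison asked whether chromatin at the genes of mitochondrial fuel oxidation differed when it was lost.

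The TCA cycle oxidises acetyl groups to carbon dioxide in the mitochondrial matrix and passes the electrons to the respiratory chain. Acetyl-CoA reaches it from pyruvate through the pyruvate dehydrogenase complex, or from fatty acids that enter through the carnitine shuttle and are shortened by β-oxidation, whose first step hands electrons to ubiquinone through the electron transfer flavoprotein. Citrate that leaves the mitochondrion is cleaved to acetyl-CoA again in the cytosol, where it serves lipid synthesis and histone acetylation. The genes are nuclear, and most are transcribed in nearly every cell type.

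Total counts in regions were 5522153 to 7590578 in OPA1KO libraries and 4660826 to 6777651 in WT libraries. Log2 CPM (counts scaled to a common library total, adjusted by TMM factors) gave correlations over the 59247 tested regions of 0.930 to 0.955 for pairs of 1 group. For pairs of both it gave 0.922 to 0.950, and by these values no library stood apart. The share of counts in promoter-like regions of any protein-coding gene was lowest in OPA1KO replicate 1, at 51.2%, against 52.2% to 52.9% in the others. At Opa1 itself the table held 1 region, over an end of the gene (chromosome 16, 29579132 to 29579622), with 34.6, 41.4, 38.0 and 43.0 CPM in OPA1KO libraries and 47.0, 40.7, 42.9 and 37.9 CPM in WT libraries. The groups overlapped (log2 fold change −0.11 ± 0.12, SE). The labels do not say which exons were floxed, so this region is no check of the deletion. All 10 cDC1 marker genes examined, among them Xcr1, Clec9a and Batf3, had a region, with summed levels of 220 to 246 CPM in OPA1KO libraries and 215 to 241 CPM in WT libraries. Of the markers of other cell types, 5 of 6 of cDC2, 4 of 5 of plasmacytoid dendritic cells and 2 of 5 of T cells had a region. So did 1 of 3 of NK cells, 2 of 4 of neutrophils and 3 of 4 of red cells. In these lists 0 lead regions were called by edgeR or had an unadjusted p at or under 0.05. Their median level was 39.4 CPM per kb of region for cDC1, 36.8 for cDC2 and 37.8 for plasmacytoid dendritic cells. It was 18.6 for red cells and 9.69 for NK cells. The T cell and neutrophil values, from 2 genes each, were above that of cDC1, at 70.9 and 47.1. These lists are therefore no measure of purity, and macrophage and monocyte markers are given below.

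The promoters that carry the contrasts described below are printed here, as 300 bases from 250 before the start site to 50 after it, 5′ to 3′ on the gene's strand, from RefSeq with build GRCm38.p6. Pdhb and Etfdh had the highest levels of all members, Pdk4 the lowest, and Idh3b had the smallest p among promoter-like regions. Idh2 has its start inside a longer gene span, and Hadha shares its region with Hadhb. Capitals mark matches, on either strand, to GGGCGG (SP/KLF factors), CCAAT (NF-Y), GCGCATGC (the NRF1 core) and CCGGAAG (ETS factors).
Pdhb (chr14:8172943-8173242, minus strand): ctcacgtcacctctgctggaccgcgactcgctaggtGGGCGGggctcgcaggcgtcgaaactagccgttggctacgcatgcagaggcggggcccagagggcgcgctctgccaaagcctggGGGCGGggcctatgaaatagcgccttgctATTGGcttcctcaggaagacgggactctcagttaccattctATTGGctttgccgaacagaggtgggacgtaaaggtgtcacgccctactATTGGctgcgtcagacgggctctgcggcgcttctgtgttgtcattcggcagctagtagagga
Etfdh (chr3:79628718-79629017, minus strand): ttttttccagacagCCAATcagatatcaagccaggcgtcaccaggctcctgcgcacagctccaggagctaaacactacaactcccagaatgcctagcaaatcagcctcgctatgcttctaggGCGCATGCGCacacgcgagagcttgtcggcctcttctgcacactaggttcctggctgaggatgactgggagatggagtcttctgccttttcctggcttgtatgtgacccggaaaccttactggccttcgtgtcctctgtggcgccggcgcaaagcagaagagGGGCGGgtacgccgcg
Pdk4 (chr6:5496229-5496528, minus strand): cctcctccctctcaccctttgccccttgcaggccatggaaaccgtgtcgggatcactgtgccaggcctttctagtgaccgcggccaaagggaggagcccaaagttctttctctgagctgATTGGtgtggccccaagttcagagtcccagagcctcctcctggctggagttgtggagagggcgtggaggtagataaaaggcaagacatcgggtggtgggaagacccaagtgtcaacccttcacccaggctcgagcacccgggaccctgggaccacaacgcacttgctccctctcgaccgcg
Idh3b (chr2:130284402-130284701, minus strand): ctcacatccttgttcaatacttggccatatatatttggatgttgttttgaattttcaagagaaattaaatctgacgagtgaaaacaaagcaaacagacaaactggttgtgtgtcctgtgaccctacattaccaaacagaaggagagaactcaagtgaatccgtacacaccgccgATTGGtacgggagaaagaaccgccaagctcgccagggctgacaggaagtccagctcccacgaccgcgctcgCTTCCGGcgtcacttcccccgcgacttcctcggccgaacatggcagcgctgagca
Idh2 (chr7:80115301-80115600, minus strand): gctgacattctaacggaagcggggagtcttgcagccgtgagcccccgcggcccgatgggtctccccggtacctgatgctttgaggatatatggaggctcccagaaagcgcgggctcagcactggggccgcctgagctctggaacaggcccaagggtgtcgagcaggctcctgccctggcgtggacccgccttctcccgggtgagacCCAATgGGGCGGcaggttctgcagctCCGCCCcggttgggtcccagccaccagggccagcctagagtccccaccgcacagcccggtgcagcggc
Hadha (chr5:30154931-30155230, minus strand): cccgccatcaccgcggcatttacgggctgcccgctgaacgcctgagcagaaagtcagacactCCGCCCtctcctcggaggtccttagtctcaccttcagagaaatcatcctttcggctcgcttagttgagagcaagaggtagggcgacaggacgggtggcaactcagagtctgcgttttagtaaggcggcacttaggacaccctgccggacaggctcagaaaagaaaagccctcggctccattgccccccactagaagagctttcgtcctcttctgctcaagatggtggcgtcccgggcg

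The CCAAT box, read as ATTGG on the other strand, occurs 3 times in the Pdhb window beside 2 matches to GGGCGG, while the Pdk4 window holds 1 CCAAT match and no GGGCGG. The Etfdh window holds the NRF1 core on both strands, since 2 overlapping matches form GCGCATGCGC. Promoter windows were available for 36 of the 40 members, and 8 motifs were searched in them on both strands. GGGCGG was found in 28 of 36 windows (77.8%), against 66.5% of the 9588 protein-coding genes with a region within 1 kb of the start and 46.3% of all 17492 genes with a window. CCAAT was found in 20 (55.6%), against 38.9% and 39.2%. The NRF1 core was in 3 windows (8.33%, Acadm, Etfa and Etfdh), against 5.57% and 3.61%, and CCGGAAG in 4 (11.1%), against 18.9% and 11.9%. The other motifs were rare in the members. AAGGTCA, an element of estrogen-related receptors, was in 1 window (2.78%, Acadm), against 2.84% and 4.06%. TGACGTCA, a cAMP response element, was in 2 (5.56%, Mdh2 and Ogdh), against 3.43% and 2.33%. CACGTG, an E-box, was in 1 (2.78%, Pcx), against 10.7% and 7.91%, and AAGATGGC, a YY1 motif, was in 0, against 4.69% and 3.21%. A match is a description of letters in the window and not of a bound factor.

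The member windows were rich in CpG dinucleotides, as promoters of widely transcribed genes are, with a median of 20 per window and a range of 9 to 35. The median was 21 over the genes with a region within 1 kb of the start and 13 over all genes with a window. The RefSeq start lay inside a region for 36 of 36 members with a window, for 38 of 45 (84.4%) of other genes of the same pathways and for 8615 of 17492 (49.3%) of all genes. The members were listed with the table known, so this is a description only. Across the 36 members, the CpG count and the highest CPM of any region within 1 kb of the start were weakly related (Spearman rho 0.19). Over the 9588 genes rho was 0.37. The CPM was not divided by region width. These points share libraries and base composition.

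No region of the TCA cycle and fatty acid oxidation genes passed the test between OPA1KO and WT. In the quasi-likelihood test of edgeR, adjusted across the 59247 regions tested, 0 of 44 promoter-like regions were called at 0.05 (smallest adjusted p = 0.724), beside 0.00754% of all 13254 promoter-like regions. Of the 33 internal regions, 0 were called (smallest adjusted p = 0.511), beside 0.0199% of all 25130 internal regions. Of all regions tested, 0.0203% were called, 12 in number. DESeq2 and limma-voom also called 0 member regions in either class. All 77 member regions passed the filter on low counts, and 10 promoter-like and 1 internal of them also lie at an end of a gene that is no member.

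At an unadjusted edgeR p at or under 0.05 there was 1 of 44 promoter-like regions, at Idh3b, where the class as a whole had 4.28%, and 1 of 33 internal regions, in Hadh, where the class had 7.01%. Both were lower in OPA1KO. Log2 fold changes were below 0 in 27 of 44 promoter-like regions (61.4%), beside 59.9% of the class, and the median was −0.03 both for the members and for the class. Among internal regions 17 of 33 were below 0 (51.5%), beside 48.4% of the class, with medians of −0.00 for the members and 0.01 for the class. The groups did not overlap at 2 of 44 promoter-like regions, 1 higher and 1 lower in OPA1KO, where the class had 3.24%, and at 2 of 33 internal regions, both lower, where the class had 4.14%. Counts of 1 and 2 are too small to set the members apart from their class.

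The precision of these values differed between the classes. The 95% interval of the log2 fold change lay within ±0.5 for 33 of 44 promoter-like regions, so that at those a difference larger than that was outside the interval, and for 8 of 33 internal regions. The median SE was 0.11 at promoter-like and 0.27 at internal regions. Promoter-like log2 fold changes ran from −0.41 to 0.39 and internal ones from −0.90 to 0.94, and the wider internal range went with low counts. Summed over the 44 promoter-like regions, the level was 2412 ± 66.7 CPM in OPA1KO and 2462 ± 8.27 CPM in WT (SD, n = 4 each), and the ranges of 2325 to 2487 CPM in OPA1KO and 2453 to 2473 CPM in WT overlapped. Over the 33 internal regions it was 350 ± 16.6 CPM in OPA1KO and 352 ± 3.02 CPM in WT. Over the whole table, the mean share of counts in promoter-like regions was also lower in OPA1KO, at 52.1 ± 0.577% against 52.6 ± 0.322% in WT. The ranges overlapped, at 51.2 to 52.5% in OPA1KO and 52.3 to 52.9% in WT. OPA1KO replicate 1 was the lowest library both in this share and in the promoter-like sum.

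**Figure D1:**
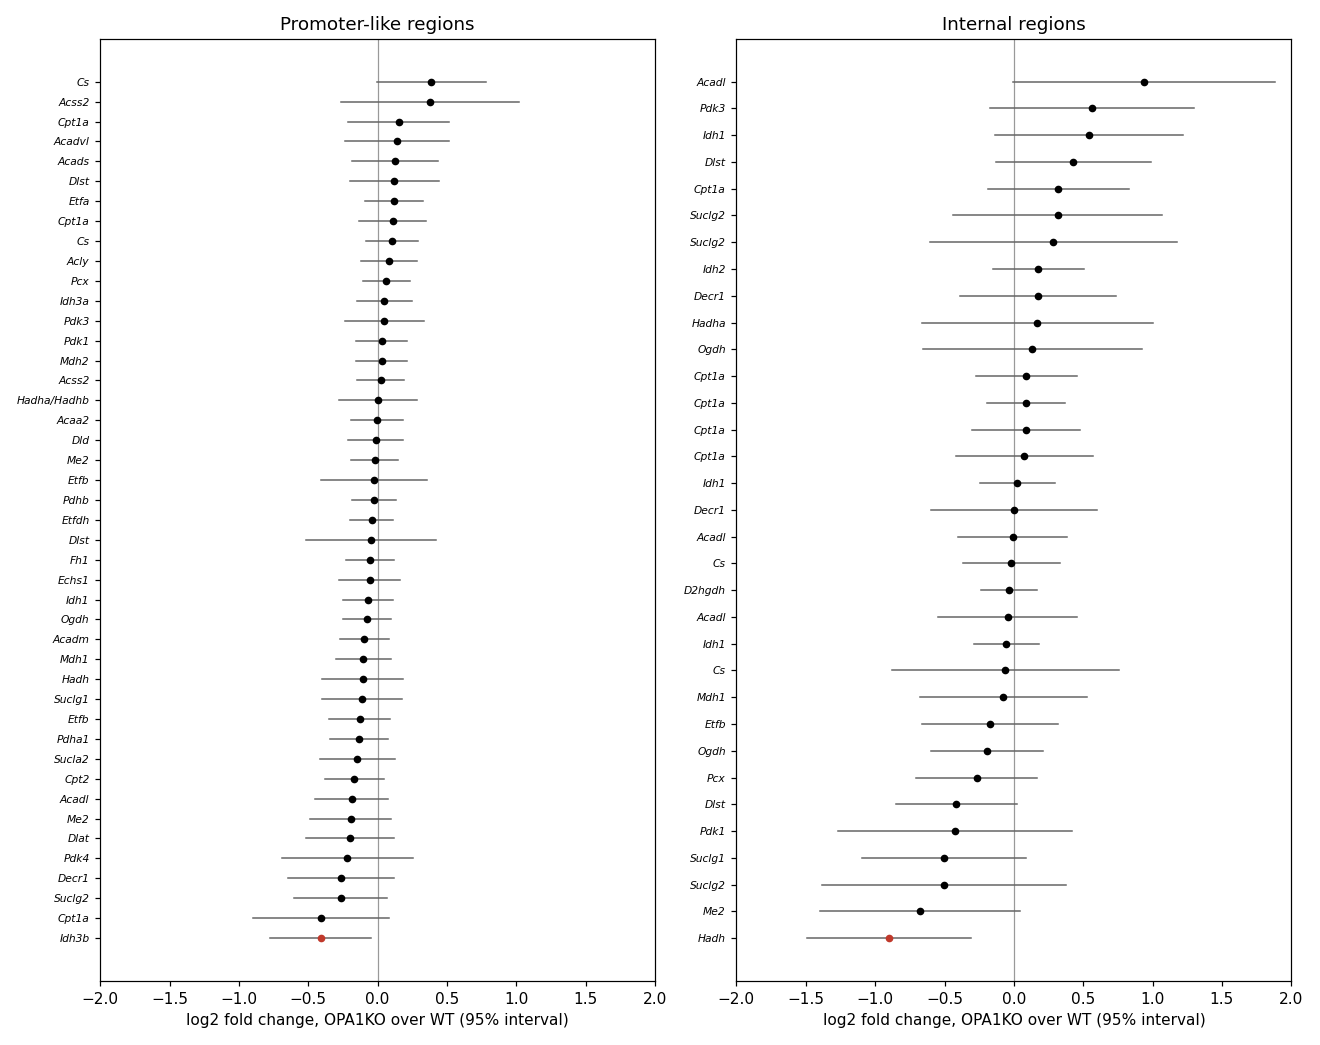
Log2 fold change, OPA1KO over WT, of the 44 promoter-like (left) and 33 internal (right) regions, with 95% intervals from edgeR. Red points have an unadjusted p at or under 0.05, and these were Idh3b at −0.41 and Hadh at −0.90; a gene with several regions appears several times.

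**Figure D2:**
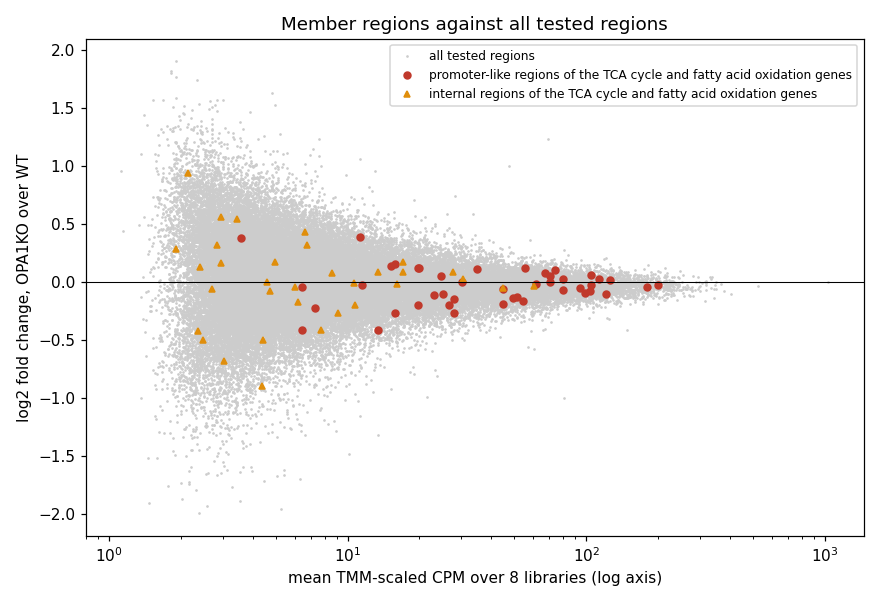
Log2 fold change, OPA1KO over WT, against mean TMM-scaled CPM over 8 libraries on a log axis, for all 59247 tested regions (grey), promoter-like member regions (red circles) and internal member regions (orange triangles). Member regions lie within the cloud of all regions, with the internal ones at lower levels and wider spread.

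Levels differed far more between the genes than between the genotypes. Each gene is represented by its lead region, the promoter-like region with the highest mean CPM or, for Idh2 and D2hgdh, which have none, the internal region with the highest mean CPM, and levels are compared between genes as CPM per kb of region. The mean over the 8 libraries ran from 14.3 CPM per kb at Pdk4 to 304 CPM per kb at Pdhb. Of the 37 distinct lead regions at gene ends, 27 lay at or above the median of all promoter-like regions. A lead region was picked as the highest of its gene, while that median takes in every promoter-like region, so this count is a description only. Ordered by level, neighbouring lead regions had overlapping library ranges, with 1 exception: the step between Etfdh (259 to 308 CPM per kb) and Mdh2 (167 to 217 CPM per kb).

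**Figure D3:**
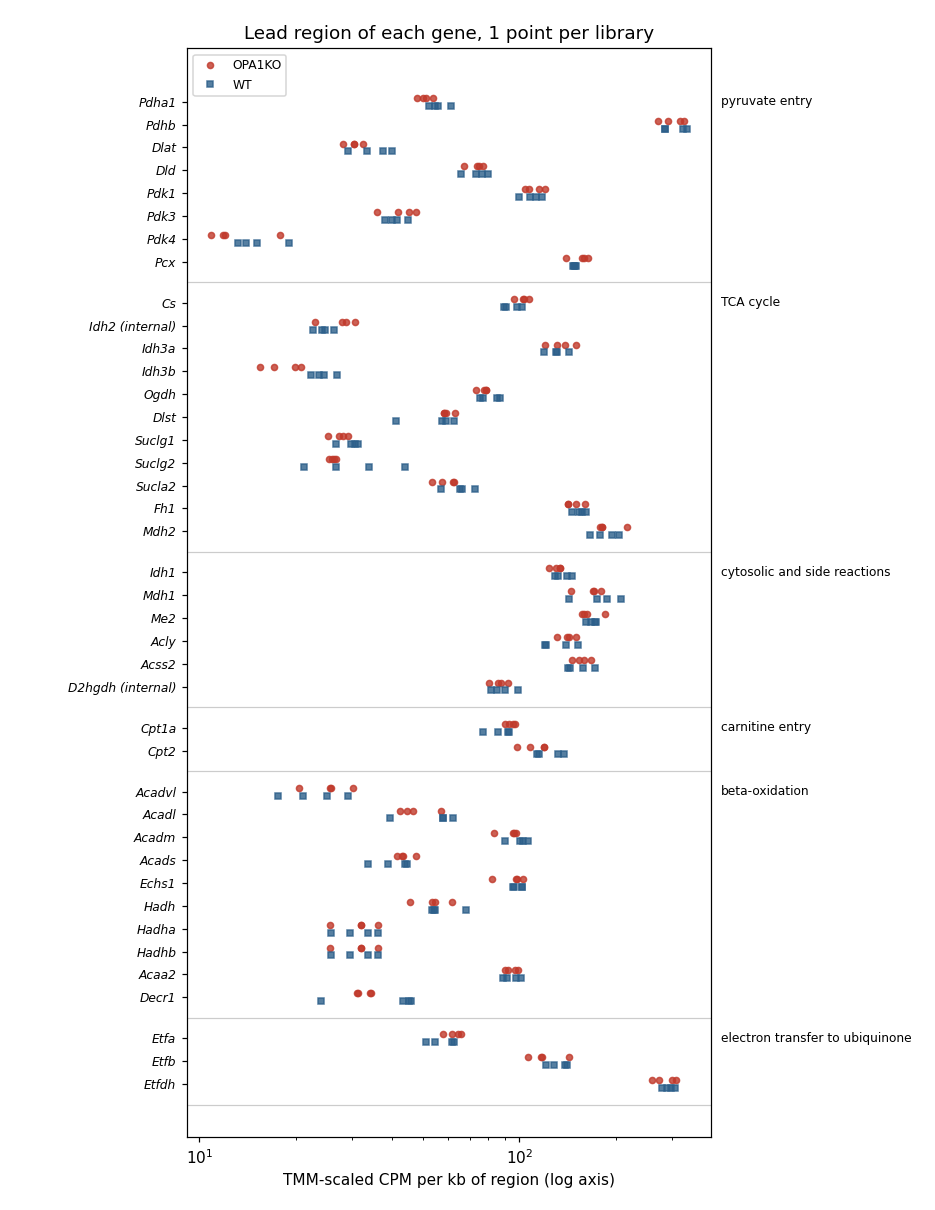
TMM-scaled CPM per kb of the lead region of each of the 40 genes, grouped by role, on a log axis. Each point is a library, with OPA1KO as red circles above WT as blue squares. Pdhb and Etfdh lie near 300 CPM per kb, Pdk4 has the lowest mean level, and at Idh3b all 4 OPA1KO values are lower than all WT values.

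Genes of the pyruvate dehydrogenase complex, which converts pyruvate to acetyl-CoA, spanned most of this range. Pdhb, the E1 beta subunit, had the highest level of all members. Its region covers the RefSeq start (chromosome 14, 8172821 to 8173478) and held 208, 191, 215 and 178 CPM in OPA1KO libraries, against 187, 219, 187 and 213 CPM in WT libraries. The groups overlapped fully, with a log2 fold change of −0.03 ± 0.08 (95% interval −0.19 to 0.13, edgeR adjusted p = 0.981). Per kb, that was 301 ± 25.4 in OPA1KO and 307 ± 25.6 in WT. Pdha1, the X-linked E1 alpha subunit that pairs with it, was at 50.7 ± 2.53 CPM per kb in OPA1KO and 55.7 ± 3.75 CPM per kb in WT. Dlat, the E2 acetyltransferase, was at 30.4 ± 1.85 CPM per kb in OPA1KO and 35.0 ± 4.78 CPM per kb in WT. Dld, the E3 subunit shared with oxoglutarate dehydrogenase, was at 73.1 ± 4.07 CPM per kb in OPA1KO and 73.8 ± 6.07 CPM per kb in WT. Log2 fold changes were −0.14 ± 0.10 for Pdha1, −0.20 ± 0.15 for Dlat and −0.01 ± 0.10 for Dld.

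The pyruvate dehydrogenase kinases, which phosphorylate and inhibit the complex, differed in level from each other. Pdk1, a target of the hypoxia factor HIF-1, was at 112 ± 7.19 CPM per kb in OPA1KO and 109 ± 7.58 CPM per kb in WT. The X-linked Pdk3 was at 42.5 ± 5.08 CPM per kb in OPA1KO and 41.1 ± 2.82 CPM per kb in WT. Pdk4, the kinase induced in fasting muscle and liver, had the lowest lead level, with 5.55, 6.17, 9.12 and 6.07 CPM in OPA1KO libraries and 9.74, 7.17, 6.76 and 7.72 CPM in WT libraries (chromosome 6, 5496272 to 5496783). These groups overlapped, and the log2 fold change of −0.22 had a 95% interval of −0.69 to 0.25. Pcx, pyruvate carboxylase, which makes oxaloacetate from pyruvate, was at 155 ± 10.5 CPM per kb in OPA1KO and 148 ± 1.648 CPM per kb in WT. Of the 8 promoter-like regions of this group, 3 were higher and 5 lower in OPA1KO, and none had an unadjusted p at or under 0.05.

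Among the TCA cycle enzymes, the 2 member genes of NAD-dependent isocitrate dehydrogenase stood at different levels. Idh3a, the catalytic alpha subunit, was at 135 ± 12.8 CPM per kb in OPA1KO and 131 ± 9.44 CPM per kb in WT. Idh3b, the beta subunit, was at 18.3 ± 2.47 CPM per kb in OPA1KO and 24.3 ± 1.92 CPM per kb in WT. The Idh3b region covers the RefSeq start (chromosome 2, 130283996 to 130284623). It held 9.68, 10.7, 13.0 and 12.5 CPM in OPA1KO libraries, against 15.4, 14.0, 14.8 and 16.9 CPM in WT libraries, and the groups did not overlap. The means were 11.5 ± 1.55 CPM in OPA1KO and 15.3 ± 1.20 CPM in WT (SD, n = 4 each), from 59 to 101 counts per library. The log2 fold change was −0.41 ± 0.18 (95% interval −0.77 to −0.05), and the region did not pass adjusted over all regions (edgeR unadjusted p = 0.0281, adjusted p = 0.724). Idh3a had a log2 fold change of 0.05 ± 0.10.

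Citrate synthase, Cs, which joins acetyl-CoA to oxaloacetate, had 2 promoter-like regions. The lead region over the start was at 102 ± 4.55 CPM per kb in OPA1KO and 95.1 ± 6.26 CPM per kb in WT. The smaller one, centred 901 bp downstream of the start (chromosome 10, 128338477 to 128338779), held 11.96, 12.7, 12.9 and 13.8 CPM in OPA1KO libraries, against 11.87, 8.58, 7.60 and 10.9 CPM in WT libraries. The groups did not overlap, by a narrow margin, and this was the largest increase among promoter-like regions whose mean reached the median over the whole table, 6.76 CPM. Its log2 fold change was 0.39 ± 0.19 (95% interval −0.01 to 0.78, edgeR unadjusted p = 0.0536, adjusted p = 0.790). At the lead region of Cs the log2 fold change was 0.11 ± 0.09.

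Idh2, the NADP-dependent mitochondrial isocitrate dehydrogenase, had no region within 1 kb of an end of its gene span. Its internal region covers a RefSeq start that lies inside the span (chromosome 7, 80114927 to 80115583). It held 20.1, 18.3, 18.8 and 15.1 CPM in OPA1KO libraries, against 15.8, 14.8, 16.3 and 17.2 CPM in WT libraries, and OPA1KO replicate 4 lay within the WT values. The log2 fold change was 0.18 ± 0.16 (95% interval −0.15 to 0.51, edgeR adjusted p = 0.907), the largest increase among internal regions that reached this median level. The cytosolic counterpart Idh1 was at 130 ± 4.79 CPM per kb in OPA1KO and 137 ± 8.04 CPM per kb in WT at its lead region, which also lies at an end of Pikfyve. Idh1 also had 2 internal regions of high level side by side, at 65178111 to 65178607 and 65178837 to 65179403 on chromosome 1, the second of which covers an alternative start. Their log2 fold changes were −0.05 ± 0.12 and 0.03 ± 0.13.

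Ogdh, the E1 subunit of oxoglutarate dehydrogenase, was at 77.0 ± 2.75 CPM per kb in OPA1KO and 81.3 ± 5.88 CPM per kb in WT, and Dlst, its E2 subunit, at 59.6 ± 2.26 CPM per kb in OPA1KO and 55.0 ± 9.44 CPM per kb in WT. The Dlst lead region also lies at an end of Prox2. An internal region of Dlst, centred 12482 bp from the start (chromosome 12, 85123114 to 85123515), held 7.12, 6.53, 6.98 and 5.91 CPM in OPA1KO libraries, against 10.0, 7.80, 8.23 and 9.33 CPM in WT libraries. The groups did not overlap, and the log2 fold change was −0.41 ± 0.21 (95% interval −0.85 to 0.02, edgeR unadjusted p = 0.0626, adjusted p = 0.804). The other internal region of Dlst had a log2 fold change of 0.43 ± 0.27, so the 2 internal regions of this gene had values of opposite sign.

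The succinyl-CoA ligase genes had low to middle levels. Suclg1, the alpha subunit of both forms of the enzyme, was at 27.4 ± 1.68 CPM per kb in OPA1KO and 29.6 ± 2.04 CPM per kb in WT. Suclg2, the beta subunit of the GTP-forming enzyme, was at 26.1 ± 0.561 CPM per kb in OPA1KO and 31.4 ± 9.76 CPM per kb in WT, where single libraries ran from 20.7 to 42.8 CPM. Sucla2, the beta subunit of the ATP-forming enzyme, was at 58.8 ± 4.32 CPM per kb in OPA1KO and 65.3 ± 6.47 CPM per kb in WT. The last steps of the cycle had higher levels. Fh1, fumarase, was at 149 ± 8.66 CPM per kb in OPA1KO and 154 ± 6.68 CPM per kb in WT, and Mdh2, mitochondrial malate dehydrogenase, at 189 ± 18.7 CPM per kb in OPA1KO and 186 ± 16.5 CPM per kb in WT. The Mdh2 region also lies at an end of Styxl1. Of the 12 promoter-like regions of TCA cycle genes, 5 were higher and 7 lower in OPA1KO, with a median log2 fold change of −0.05.

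The genes of cytosolic and side reactions had the highest typical level, a median of 137 CPM per kb over their 7 promoter-like regions, beside 59.7 CPM per kb over those of the TCA cycle and 50.9 CPM per kb over those of β-oxidation. Mdh1, cytosolic malate dehydrogenase, was at 166 ± 14.8 CPM per kb in OPA1KO and 179 ± 27.2 CPM per kb in WT, in a region that also lies at an end of Wdpcp. Acly, which cleaves citrate to acetyl-CoA, was at 141 ± 8.07 CPM per kb in OPA1KO and 134 ± 15.5 CPM per kb in WT. Acss2, which makes acetyl-CoA from acetate, was at 156 ± 8.85 CPM per kb in OPA1KO and 154 ± 14.1 CPM per kb in WT. Me2, the mitochondrial NAD-dependent malic enzyme, was at 166 ± 12.9 CPM per kb in OPA1KO and 168 ± 5.49 CPM per kb in WT. The log2 fold changes of these 4 lead regions were −0.10 ± 0.10 for Mdh1, 0.08 ± 0.10 for Acly, 0.02 ± 0.08 for Acss2 and −0.02 ± 0.08 for Me2. A second Acss2 region, at the far end of the gene and also at an end of Gss, had a log2 fold change of 0.38 ± 0.31 at a mean of 3.56 CPM.

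D2hgdh, which oxidises D-2-hydroxyglutarate to oxoglutarate, had the internal region with the highest level among the members. It covers the RefSeq start, which lies inside the gene span (chromosome 1, 93825034 to 93825720). It held 58.8, 55.1, 60.2 and 63.2 CPM in OPA1KO libraries, against 58.3, 56.0, 61.9 and 67.8 CPM in WT libraries. The groups overlapped (log2 fold change −0.04 ± 0.10, 95% interval −0.24 to 0.16, edgeR adjusted p = 0.977).

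Of the carnitine shuttle genes, Cpt1a, the outer-membrane enzyme that commits long-chain fatty acids to oxidation, had 3 promoter-like and 5 internal regions, the most of any member. At the lead region, over the start (chromosome 19, 3323126 to 3323510), levels were 35.7, 34.6, 37.2 and 36.6 CPM in OPA1KO libraries, against 35.6, 35.4, 32.9 and 29.6 CPM in WT libraries. These groups overlapped, with a log2 fold change of 0.11 ± 0.12 (95% interval −0.13 to 0.35). The 2 other promoter-like regions lie upstream of the start, centred at −1519 and −878 bp relative to it, with log2 fold changes of 0.15 ± 0.18 and −0.41 ± 0.24. All 5 internal regions had log2 fold changes above 0, of 0.08 to 0.32, and none had an unadjusted p at or under 0.05. Cpt2, the inner-membrane enzyme that returns the acyl group to CoA, was at 111 ± 10.1 CPM per kb in OPA1KO and 125 ± 12.2 CPM per kb in WT, with a log2 fold change of −0.17 ± 0.11.

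The acyl-CoA dehydrogenases, which catalyse the first step of β-oxidation and differ in the chain length they prefer, also differed in level. Acadm, for medium chains, was at 93.3 ± 6.60 CPM per kb in OPA1KO and 99.8 ± 6.97 CPM per kb in WT. Acadl, for long chains, was at 47.6 ± 6.48 CPM per kb in OPA1KO and 54.3 ± 10.0 CPM per kb in WT. Acads, for short chains, was at 43.8 ± 2.56 CPM per kb in OPA1KO and 40.2 ± 5.11 CPM per kb in WT. Acadvl, for very long chains, was the lowest, at 25.6 ± 3.98 CPM per kb in OPA1KO and 23.2 ± 4.98 CPM per kb in WT. Log2 fold changes were −0.10 ± 0.09 for Acadm, −0.19 ± 0.13 for Acadl, 0.12 ± 0.15 for Acads and 0.14 ± 0.18 for Acadvl. An internal Acadl region had the highest log2 fold change of all member regions, 0.94 ± 0.46 (95% interval −0.01 to 1.88), at low levels of 1.15 to 4.03 CPM in OPA1KO libraries, against 0.609 to 2.18 CPM in WT libraries. The groups overlapped.

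The later enzymes of β-oxidation held the internal region with the smallest p. Hadh, which oxidises hydroxyacyl-CoA of short and medium chains, had a region 34158 bp from its start, inside the gene (chromosome 3, 131237806 to 131238081). It held 2.99, 3.45, 2.55 and 3.28 CPM in OPA1KO libraries, against 5.63, 4.05, 5.28 and 7.90 CPM in WT libraries, and the groups did not overlap. The means were 3.07 ± 0.393 CPM in OPA1KO and 5.71 ± 1.60 CPM in WT (SD, n = 4 each). The log2 fold change was −0.90 ± 0.29 (95% interval −1.49 to −0.31), and the region did not pass over all regions (edgeR unadjusted p = 0.00411, adjusted p = 0.511). The counts behind it were low, at 21, 19, 19 and 20 in OPA1KO libraries and 37, 26, 25 and 44 in WT libraries. At the promoter-like region of Hadh the log2 fold change was −0.11 ± 0.14, with 20.5, 27.8, 24.6 and 24.1 CPM in OPA1KO libraries and 30.7, 24.6, 24.5 and 24.0 CPM in WT libraries, which overlapped.

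Markers of macrophages and monocytes were measured beside the Hadh and Idh3b values. All 10 such genes had a region, and their summed level was 61.9 to 66.8 CPM in OPA1KO libraries and 65.9 to 79.5 CPM in WT libraries. Of the 10, 0 were called, beside 0.0203% of all regions tested, and 4 had an unadjusted edgeR p at or under 0.05. Over the whole table, 4.28% of promoter-like and 7.01% of internal regions had such a p. The median log2 fold change of the 10 lead regions was −0.32. C1qb (4.20 ± 0.769 CPM in OPA1KO and 7.68 ± 1.73 CPM in WT), Vcam1 (4.76 ± 1.06 CPM in OPA1KO and 7.39 ± 2.11 CPM in WT) and C1qc (3.16 ± 1.25 CPM in OPA1KO and 5.03 ± 1.41 CPM in WT) had lower means in OPA1KO, and Ccr2 a higher one (3.84 ± 0.479 CPM in OPA1KO and 1.897 ± 0.539 CPM in WT). Their part in the Hadh and Idh3b values was not tested, and in a bulk library fewer cells of a type and less accessible DNA per cell cannot be told apart.

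The remaining β-oxidation genes did not pass the test either. Hadha and Hadhb, the subunits of the mitochondrial trifunctional protein, are divergent neighbours that share 1 region over both starts (chromosome 5, 30154648 to 30155607), with 34.6, 30.7, 30.6 and 24.6 CPM in OPA1KO libraries and 34.7, 32.3, 28.3 and 24.8 CPM in WT libraries. The log2 fold change was 0.00 ± 0.14 (95% interval −0.28 to 0.28). Echs1, the hydratase for short-chain enoyl-CoA, was at 95.03 ± 8.77 CPM per kb in OPA1KO and 98.8 ± 3.67 CPM per kb in WT, in a region that also lies at an end of Paox. Acaa2, the thiolase of the last step, was at 94.5 ± 4.10 CPM per kb in OPA1KO and 94.7 ± 5.496 CPM per kb in WT. Decr1, the dienoyl-CoA reductase needed for unsaturated fatty acids, held 13.5, 14.9, 15.0 and 13.6 CPM in OPA1KO libraries, against 19.9, 10.4, 19.6 and 18.8 CPM in WT libraries. WT replicate 2 was below every OPA1KO library and the 3 other WT libraries above them (log2 fold change −0.27 ± 0.19). Of the 9 promoter-like regions of this group, 3 were higher and 6 lower in OPA1KO, and none had an unadjusted p at or under 0.05.

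The electron transfer flavoprotein genes carry electrons from acyl-CoA dehydrogenases to ubiquinone. Etfdh, the ubiquinone oxidoreductase, had the second highest level, with 162, 192, 187 and 171 CPM in OPA1KO libraries and 186, 181, 191 and 175 CPM in WT libraries (chromosome 3, 79628593 to 79629218). The groups overlapped, and the log2 fold change was −0.04 ± 0.08 (95% interval −0.20 to 0.11). The region also lies at an end of 4930579G24Rik. Etfb, the beta subunit, was at 121 ± 15.7 CPM per kb in OPA1KO and 132 ± 9.23 CPM per kb in WT, and Etfa, the alpha subunit of the same heterodimer, at 62.2 ± 3.55 CPM per kb in OPA1KO and 57.4 ± 5.48 CPM per kb in WT. Their log2 fold changes were −0.13 ± 0.11 and 0.12 ± 0.10. The Etfb region also lies at an end of Cldnd2.

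**Figure D4:**
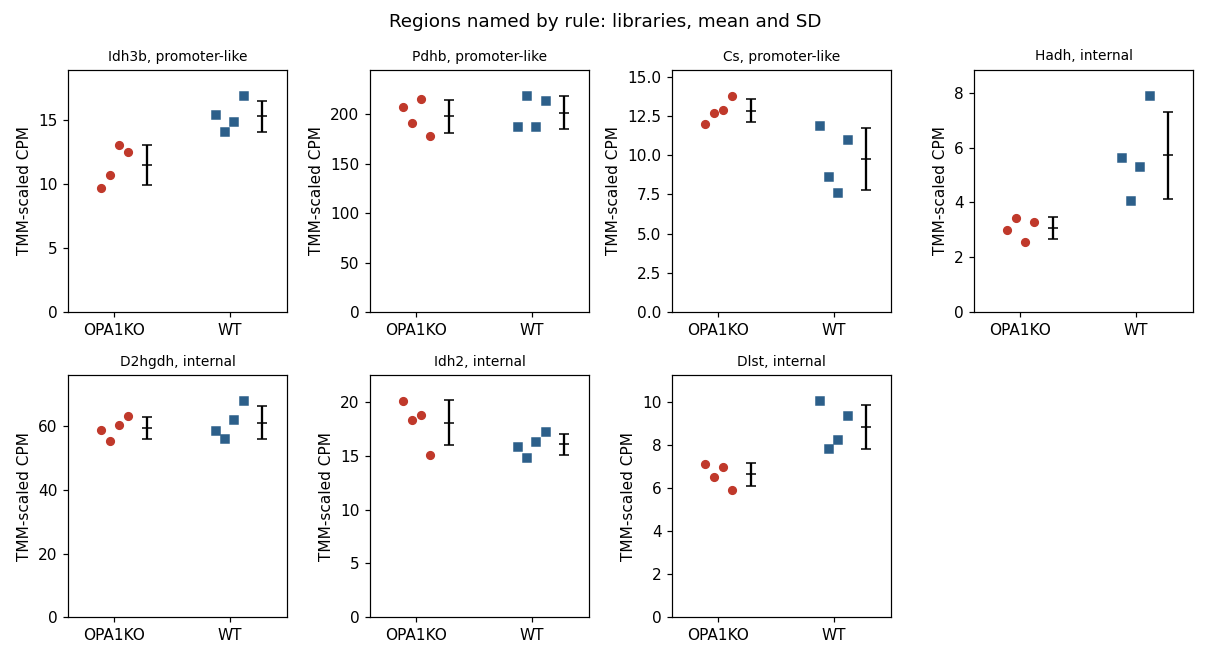
TMM-scaled CPM in each library for the regions with the smallest p, the highest level or, among regions with a mean of at least 6.76 CPM, the largest change in each class, with OPA1KO (red circles) left of WT (blue squares) in each panel, and the mean ± SD (n = 4) as a bar beside each group. The groups do not overlap at Idh3b, at the smaller Cs region, in Hadh and in Dlst, and overlap at Pdhb, D2hgdh and Idh2.

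Other genes of the same pathways, 56 in number, also had no region called by edgeR. Of their 60 promoter-like regions 0 were called by edgeR, DESeq2 or limma-voom, beside the 0.00754% above. By edgeR 22 were higher and 38 lower in OPA1KO, with a median log2 fold change of −0.03, and 4 had an unadjusted p at or under 0.05, where the class had 4.28%. Of their 84 internal regions, 0 were called by edgeR, beside 0.0199% of the class. Of the 84, 47 were higher and 37 lower (48.4% of the class were lower), and 8 had an unadjusted p at or under 0.05, where the class had 7.01%. At that p the members had fewer, 1 of 44 promoter-like and 1 of 33 internal regions. The smallest p was in Aco1, the cytosolic aconitase and iron regulatory protein gene, at an internal region with 3.84, 3.08, 2.95 and 5.25 CPM in OPA1KO libraries and 7.91, 4.37, 8.45 and 11.1 CPM in WT libraries. These groups overlapped, and the log2 fold change was −1.06 ± 0.28 (edgeR adjusted p = 0.322). Sdhb, the iron-sulfur subunit of succinate dehydrogenase, had 1 internal region at 1.08 ± 0.42 and another at −0.50 ± 0.23. Of the fatty acid genes, Acad8, a dehydrogenase of valine breakdown, had an internal region at −0.43 ± 0.18, and Acaca, the acetyl-CoA carboxylase of fatty acid synthesis, one at 0.95 ± 0.41. Of the regulators, internal regions of Pparg, the adipogenic nuclear receptor, and Rxra, its heterodimer partner, were at 0.69 ± 0.25 and 1.30 ± 0.48. The Rxra region was at low levels, with means of 2.63 CPM in OPA1KO and 1.04 CPM in WT. Promoter-like regions of Pparg and Rxra were at 0.09 ± 0.22 and −0.38 ± 0.21. None of these passed adjusted over all regions.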

How the data were processed

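Chromatin accessibility was measured by ATAC-seq in 8 libraries of sorted splenic cDC1, 4 OPA1KO and 4 WT. Per the labels, nuclei were treated with transposase and the DNA was amplified. Builds mm10 and GRCm38 and the tools MACS2 2.1.0.20150603, cutadapt 1.9, bedtools, Picard 1.65 and SAMtools are named, per the submitters' processing notes. What each tool did, any shift of read ends and how the region set was made are not given in the sources used here. Values were deposited by the authors as raw counts per region. Between 54.1% and 59.9% of them were even numbers, depending on the library, and whether both ends of a read pair were counted was not tested. It is not stated whether starts count from 0 or from 1, so the coordinates are those of the deposited table.

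Regions were filtered with filterByExpr (659 removed, 59247 tested), scaled with TMM factors (0.947 to 1.03) and tested with edgeR 4.0.16 in R 4.3.3 (glmQLFit with robust estimation, glmQLFTest, no covariates), adjusted by Benjamini-Hochberg over all tested regions, with calls at 0.05. Levels are TMM-scaled CPM. SE and 95% intervals come from the same fit. Gene spans and promoters came from RefSeq on GRCm38, with no exon annotation, so introns and exons were not told apart. DESeq2 1.42.0, limma 3.58.1 (voom), other scalings, filters and distances, and leaving out each library were alternatives. No 2 libraries of a group held the same counts (chi-square per degree of freedom 2.16 to 4.77 over 12 pairs). Each was counted as a sample because the labels list it as one, and this check does not tell separate animals from repeat libraries. The script was tested on simulated data.

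The members and lists were chosen with earlier results of these data known. Library values are given for regions called or with an unadjusted p at or under 0.05, for the highest level in each class, and for the largest change in each direction and class among regions whose mean reached the median level over all tested regions. One of the marker lists is not reported here. Of other pathway genes, up to 2 with the smallest p per list are named. Further members with library values (Pdk4, Cpt1a, Etfdh, Hadha with Hadhb, Decr1, the Hadh promoter-like region and the internal Acadl region), and the named marker genes, were chosen after their values were seen.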

Additional observations from a re-analysis of the deposited data

Results flagged for a closer look

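In 3 of 84 groups of 4 libraries, over the 42 regions checked, 1 library lay far from the other 3, where chance alone gives about 1 in 20 groups. At the promoter-like Mdh2 region, OPA1KO replicate 3 was at 131 CPM, and the other OPA1KO libraries were at 108 to 109 CPM. At the promoter-like Decr1 region, WT replicate 2 was at 10.4 CPM, and the other WT libraries were at 18.8 to 19.9 CPM. At the promoter-like Hadh region, WT replicate 1 was at 30.7 CPM, and the other WT libraries were at 24.0 to 24.6 CPM.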

How the results depend on the processing

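Under all 19 alternatives, the number of called regions was 0 for the members in both classes and for promoter-like regions of the other pathway genes. The median log2 fold change of promoter-like member regions was −0.05 to −0.01, and that of internal ones −0.02 to 0.05, so that the sign of the internal median was not fixed. At an unadjusted p at or under 0.05, promoter-like members numbered 0 without OPA1KO replicate 1 or 2, 2 under limma-voom, with total counts as scaling, or without OPA1KO replicate 4 or WT replicate 1, and 5 without WT replicate 2, and internal members 1 to 4, with 2 under total counts and 4 without WT replicate 2. The Pdhb value turned to 0.00899 with loess offsets and ran from −0.069 to 0.023 when 1 library was left out (above 0 without OPA1KO replicate 4 or WT replicate 2 or 4), and that of D2hgdh ran from −0.077 to 0.020 (above 0 without WT replicate 4). The values of Idh3b (−0.48 to −0.33), Hadh (−1.04 to −0.70), Cs (0.30 to 0.51), Dlst (−0.47 to −0.34) and Idh2 (0.12 to 0.25) kept their sign under the 16 alternatives tried for single regions. For Idh3b the unadjusted p was 0.0232 to 0.0890 and the adjusted p 0.498 to 0.969, and for Hadh they were 0.00154 to 0.0350 and 0.204 to 0.905. Same-numbered libraries correlated at −0.13 to −0.01 in their deviations from the group means, and 0 of them correlated best with their own number. This check gave no sign of pairing by number, and with so few libraries it cannot exclude a shared batch. With a replicate block, 0 member regions were called and the medians were −0.03 and −0.01. Counts of 19 to 44 per library at the internal Hadh region limit what can be detected there.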
